A study of Homo sapiens with 2 samples.

Results

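The hairpins of miR-191 and of its neighbour miR-425 form a cluster on human chromosome 3 and together give 4 mature products, 1 from each arm of each hairpin. Its members were taken by name, as the probes hsa-miR-191, hsa-miR-191*, hsa-miR-425 and hsa-miR-425* (the prefix, for human, is left out below). The star marks the opposite arm of the same hairpin. The choice was made with earlier results of these data known. All 4 names were on the array, among 718 probe names in all, and all 4 were detected on both arrays. The samples were HepG2 cells, an established human liver cancer line, and each of the 2 arrays held total RNA from them. By the labels, 1 array was of control cells, for which no vehicle is given. The other was of cells treated with 10 nM TCDD (a chlorinated dioxin and a strong ligand of the aryl hydrocarbon receptor) for 48 h. The comparison addresses how TCDD affects the small RNAs of these cells, and with 1 array per group it has no replicate check and no test.

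A miRNA gene is transcribed as a long precursor that folds into hairpins. Drosha and Dicer cut each hairpin to a short duplex, and Argonaute usually keeps one strand (the guide) while the other (the star strand) is mostly degraded, so arms of 1 hairpin share their precursor and can differ in stability. The guide finds target mRNAs mainly through its seed, bases 2 to 8. The miR-191 and miR-425 hairpins are transcribed together from within the gene DALRD3, and miR-191 is widely described as raised in tumours, liver cancer among them.

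The mature sequences from RefSeq (GRCh38.p14) show which bases each probe name stands for. Old array names were matched to the later arm names, miR-191 to miR-191-5p, miR-191* to miR-191-3p, miR-425 to miR-425-5p and miR-425* to miR-425-3p, and 3 of the 4 had an entry, the exception being miR-425-5p. They are written 5′ to 3′ with the seed in capitals.
miR-191 (miR-191-5p): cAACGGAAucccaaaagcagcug
miR-191* (miR-191-3p): gCUGCGCUuggauuucgucccc
miR-425* (miR-425-3p): aUCGGGAAugucguguccgccc
miR-191-5p lies at chr3:49020672-49020694, miR-191-3p at chr3:49020631-49020652 and miR-425-3p at chr3:49020159-49020180, all on the minus strand. miR-191 is 23 bases long with a GC content of 52.2%, and the 2 star arms are 22 bases long with 63.6% each. The 3 seeds differ from each other, and none of the other 2369 mature names in the table shares any of them. In the best ungapped alignment with any other mature human miRNA, miR-191 matched at 14 of its 23 bases (miR-146b-5p, tied with others), miR-191* at 13 (miR-1184) and miR-425* at 13 (miR-1247-3p, tied with others). No near-identical sequence was thus found in the table for these 3 members. The array's own probe sequences were not used here.

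The MIR191 hairpin is shown because both of its arms were measured and their differences were unequal. It is 92 bases long, at chr3:49020618-49020709 on the minus strand, and the capitals mark the 5p arm (bases 16 to 38) and the 3p arm (bases 58 to 79).
MIR191: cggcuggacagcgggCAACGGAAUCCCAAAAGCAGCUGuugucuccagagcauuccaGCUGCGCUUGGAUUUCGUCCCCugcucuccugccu
The MIR425 hairpin of 87 bases lies 383 bases downstream on the same strand, at chr3:49020148-49020234. Both hairpins lie within DALRD3 in the RefSeq gene table, and MIR191 also lies within the span of NDUFAF3.

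The promoter of DALRD3 that lies upstream of both hairpins is shown because the aryl hydrocarbon receptor, the receptor of TCDD, is known to bind a core of the letters GCGTG. The stretch holds 250 bases before and 50 bases after the gene's start, at chr3:49021456-49021755 on the minus strand, with each GCGTG or its complement CACGC in capitals.
DALRD3 promoter: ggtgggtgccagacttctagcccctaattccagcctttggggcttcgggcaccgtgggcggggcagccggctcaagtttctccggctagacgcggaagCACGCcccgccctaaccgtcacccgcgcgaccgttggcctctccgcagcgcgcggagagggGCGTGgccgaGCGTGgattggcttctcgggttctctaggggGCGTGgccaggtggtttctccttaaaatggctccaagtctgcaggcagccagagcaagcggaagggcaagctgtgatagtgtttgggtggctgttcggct
It holds 4 such matches, 3 on the strand shown and 1 on the other, with no overlap between them. Of 35116 promoters of the same length, 36.5% held at least 1 match and 1.63% held 4 or more. The core holds the letters CG, and those promoters were not matched to that of DALRD3 for GC content. These matches describe the letters only, since the arrays measured neither binding nor the transcript.

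The deposited values are log2 fluorescence from a single channel. The smallest value, 5.64, was shared by many probes, and the floor for detection was set at 2 times that fluorescence, which is 100 units or 6.64 on the log2 scale. Of the 718 names, 242 were detected on 1 array or both, and 222 on both. Of the hepatocyte markers, miR-192 (13.88 in control, 13.96 on the TCDD-labelled array) and miR-194 (12.34 and 13.06) were bright and miR-122a was dim (7.60 and 7.59). miR-215 lay just above the floor in control (6.93) and under it on the TCDD-labelled array (6.47), and miR-148a was under it on both (6.43 and 6.52). None of the 5 blood markers, 4 muscle markers and 1 endothelial marker was detected, while miR-143 (10.17 and 10.36) and miR-145 (12.39 and 12.42), markers of fibroblasts and smooth muscle, were present on both arrays. Both samples were of 1 cell line, so these 2 signals show only that the probes read above the floor, and their source was not tested. Values of different probes depend on the probe as well as on the RNA, so levels below place each probe within its array and do not rank the miRNAs by abundance.

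miR-191 was lower on the TCDD-labelled array, while the other 3 products of the cluster were close to their control signal. miR-191, the guide strand of its hairpin, gave a log2 fluorescence of 15.77 on the control array and 14.60 on the TCDD-labelled array. On the linear scale these are 55877 and 24782 units, so the signal under the TCDD label was 44.4% of control, a log2 difference of -1.17 or 2.25-fold lower. This direction follows the deposited labels. It is opposite to the rise of miR-191 after dioxin for which the study is known, as recalled from general knowledge and not checked here, and with the labels exchanged every sign below would turn.

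miR-425, the guide strand of the other hairpin, gave 12.99 on the control array and 12.76 on the TCDD-labelled one, 85.0% of the control fluorescence and a log2 difference of -0.23. miR-425*, its opposite arm, had 9.48 and 9.31, which is 88.6% of control and a log2 difference of -0.18. miR-191*, the opposite arm of miR-191, had 7.35 and 7.25, which is 93.7% of control and a log2 difference of -0.09. All 4 members were thus lower under the TCDD label, but 3 of them by less than the spread of differences between probes. The robust SD of that spread over the 222 names detected on both arrays was 0.28, and it does not measure replicate error. The 3 lay within 0.14 of each other on the log2 scale, around a median difference of -0.18, and miR-191 lay 1.08 further down than miR-191*.

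**Figure D1:**
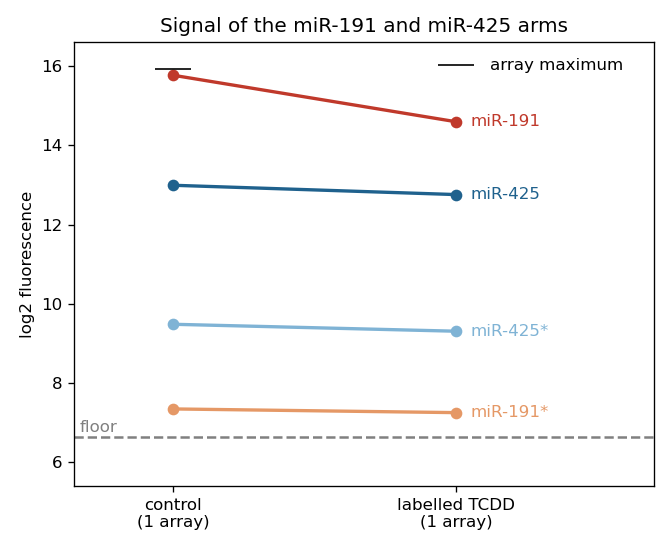
Log2 fluorescence of the 4 members (vertical axis) on the control array and on the TCDD-labelled array, 1 array each, with lines joining the values of 1 probe. The dashed line is the floor at 6.64 and the short bars are the highest value of each array. miR-191 lies at 15.77 and 14.60, and the lines of miR-425, miR-425* and miR-191* are nearly level.

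The order of the members was the same on both arrays, with miR-191 brightest, then miR-425, miR-425* and miR-191*. Among all 718 names miR-191 ranked 4 in control and 13 on the TCDD-labelled array, miR-425 ranked 29 and 37, miR-425* ranked 100 and 102, and miR-191* ranked 192 and 194. The members spanned 8.42 log2 units in control and 7.34 under the TCDD label. Neighbours in this order were at least 2.14 apart in control and 1.84 apart under the TCDD label, with no replicate spread to set beside these gaps. The highest value of the control array was 15.93, only 0.16 above miR-191, and that of the other array was 16.02, which is 1.43 above it. Other probes lay at or near these maxima, among them miR-107 (15.93 and 16.02) and miR-103 (15.90 and 16.02), named after their values were seen. Compression of the control signal of miR-191 near the top of the range was not tested.

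One of the 4 members, miR-191, was at least 2-fold lower, and none was 2-fold higher. Over all 242 detected names, 6 (2.48%) were at least 2-fold lower and 1 (0.413%) was at least 2-fold higher, or 2.89% either way. At 1.5-fold the count of members stayed at 1, against 18 detected names (7.44%) either way (4.13% lower and 3.31% higher), and at 3-fold it was 0, against 1 name (0.413%). All 4 members had differences below 0, against 50.4% of the detected names, and the median over the 4 was -0.21 against -0.003 over all 242.

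Set among the 222 names detected on both arrays, 3 had a difference further from 0 than that of miR-191, and all 3 were lower (miR-181b, miR-181a and the unnamed candidate 6_5, named after their values were seen). For miR-425, 94 names (42.3%) had a larger difference in size, for miR-425* 116 (52.3%) and for miR-191* 162 (73.0%). These 3 members thus sat in the bulk of the distribution and miR-191 at its lower edge. The human miRNAs with the difference nearest to that of miR-191, among 199 candidates over the 2 arrays, were miR-184 (8.41 in control, 7.39 on the TCDD-labelled array, a difference of -1.02), miR-21* (12.84 and 11.93, -0.92) and miR-148b (8.53 and 7.62, -0.91).

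**Figure D2:**
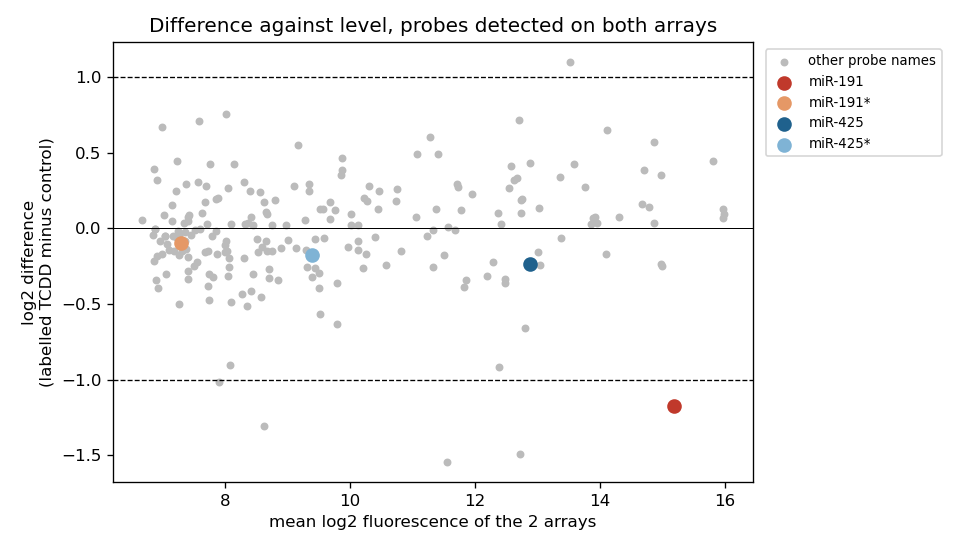
Log2 difference, TCDD-labelled array minus control (vertical axis), against the mean log2 fluorescence of the 2 arrays (horizontal axis) for the 222 probe names detected on both. Dashed lines mark 2-fold. miR-191 at -1.17 is apart from the probes of similar mean level, and the other 3 members lie in the bulk of the points at their levels.

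The members cover most of the signal range, so each was also set beside the 25 other probes nearest to it in mean level. Around miR-191 these probes lay between 13.04 and 15.98, with a median difference of 0.10. Their lowest difference was -0.25, that of miR-21, and their highest was 1.10, so none of the 25 was as low as miR-191. Matching used the mean of both arrays, so a probe that falls also moves down in level. miR-181a, at 13.46 in control but with a mean of 12.72, was thus not among the 25, and its difference was -1.50. Some of the 25 bright probes lie at the top of the array's range, where signals can be saturated. The median of 0.10 around miR-191 was itself the difference of such a probe, miR-107 (15.93 and 16.02), at the top of both arrays. Around miR-425 the median was also 0.10, and 7 of the 25 were lower than miR-425, down to -1.50 for miR-181a. Around miR-425* the median was -0.07 with 9 of 25 lower, and around miR-191* it was -0.05 with 8 of 25 lower. Relative to these medians the members differed by -1.27 (miR-191), -0.34 (miR-425), -0.11 (miR-425*) and -0.04 (miR-191*).

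The arms of the MIR191 hairpin differed from each other more than those of MIR425. The difference of miR-191 minus that of miR-191* was -1.08, and that of miR-425 minus that of miR-425* was -0.06. Pairs of arms with both above the floor on both arrays numbered 50, 35 with a guide and a star name and 15 with 5p and 3p names. In 5 of the 35 the star name carries a copy number, and there the guide probe reads the copies from other hairpins too. The gap within the miR-191 pair ranked 2 of the 50 by size and that of the miR-425 pair ranked 45. A larger gap was found for miR-181a (13.46 and 11.97) with miR-181a-2* (9.54 and 9.23), where the guide differed by 1.18 more than that star and was again the lower arm. The other star probe, miR-181a* (8.89 and 5.95), named after its values were seen, was under the floor on the TCDD-labelled array and so was not paired. With the floor its difference was -2.24, a bound, and lower than the -1.50 of the guide. A nearly equal gap of 1.07 was found for miR-92a (12.34 and 12.03) with miR-92a-1* (7.64 and 8.40). These 3 pairs were the ones past 2-fold. Next came miR-339-5p (11.16 and 11.65) with miR-339-3p (9.02 and 8.68), at 0.83. Over the 48 pairs outside the cluster the median gap in size was 0.24, and among their 33 guide and star pairs the guide had the lower difference in 18.

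miR-191* lay at only 1.63 times the floor in control and 1.53 times on the TCDD-labelled array. With a floor, a fall of at most 0.70 on the log2 scale could have been read for it, less than the fall of miR-191. At its level, differences from -0.50 to 0.45 were measured among the 25 nearest probes. miR-425 and miR-425* lay further above the floor, at 81.6 and 7.16 times in control, which left room for falls of 6.35 and 2.84.

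The guides of both hairpins also differed from each other. The log2 difference of miR-191 minus that of miR-425 was -0.94. Pairs of miRNA genes with at most 10000 bases between their hairpins, both detected on both arrays, numbered 63 among 141 miRNAs found in the RefSeq gene table. They are not independent, since 1 miRNA can stand in several pairs and a probe reads all genomic copies of its miRNA. The gap of 0.94 was the largest of the 63, closely followed by miR-19b (10.98 and 11.58) with miR-92a (12.34 and 12.03) at 0.91 and miR-29a (12.50 and 12.83) with miR-29b (8.60 and 8.09) at 0.85. Over the other 62 pairs the median gap was 0.21 and none reached 2-fold. The lowest miRNAs of the arrays in this set, miR-181a and miR-181b, named after their values were seen, had nearly equal differences, at -1.50 and -1.55.

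**Figure D3:**
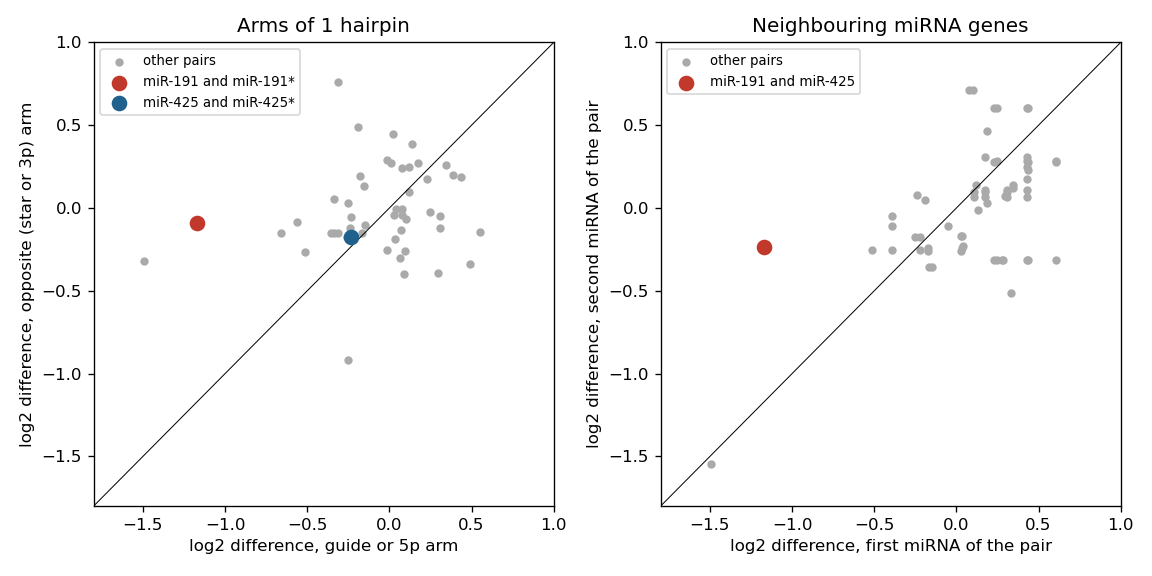
Log2 differences, TCDD-labelled array minus control, of paired miRNAs: on the left 50 pairs of hairpin arms, on the right 63 pairs of neighbouring miRNA genes. On the diagonal both partners have the same difference. The miR-191 pairs have gaps of 1.08 on the left, where miR-181a with miR-181a-2* lies further from the diagonal at 1.18 and miR-92a with miR-92a-1* nearly as far at 1.07, and of 0.94 on the right. The miR-425 arms lie close to the diagonal.

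The lists of miRNAs taken for comparison, chosen with earlier results of these data known, held no difference as large as that of miR-191. Of 17 miRNAs often described as raised in hepatocellular carcinoma, as miR-191 is, 14 were detected, 5 with differences below 0 and 9 above, and none was 2-fold apart. Their median was 0.08, against -0.003 over all detected names. The lowest were miR-183 (9.97 and 9.61, a difference of -0.36) and miR-30d (12.66 and 12.30, -0.36), and the highest were miR-106b (13.19 and 13.53, 0.34) and miR-301a (8.96 and 9.24, 0.28). Of the 2 miRNAs described as targets of that receptor, miR-132 lay near the floor (6.97 and 6.76, a difference of -0.22) and miR-212 under it (6.08 and 5.66). Of 7 detected RNAs of the kinds used as references, the 4 small nucleolar RNAs listed for comparison lay between -0.15 and 0.07, with RNU44 at 13.85 and 13.91, RNU38B at 10.20 and 10.06 and RNU24 at 8.43 and 8.46. RNU66, just above the floor, differed by -0.08. Relative to these 4 RNAs, the difference of miR-191 was between -1.24 and -1.03. The other 3, described after their values were seen, were all higher on the TCDD-labelled array. The small nucleolar RNU48 (15.58 and 16.02) was higher by 0.44, and miR-103 shared its value of 16.02 at the top of that array. The spliceosomal RNU6B (13.79 and 14.44) was higher by 0.65 and 5S ribosomal RNA (14.57 and 15.15) by 0.57. Relative to these 3, miR-191 was at between -1.83 and -1.62.

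Across the 8 alternatives listed for scaling the arrays or treating dim values, the difference of miR-191 stayed between -1.33 and -1.14, past 2-fold in each. Those of miR-425 (-0.34 to -0.21), miR-425* (-0.18 to -0.03) and miR-191* (-0.09 to -0.04) stayed below 0 and under 1.5-fold. The choice of reference RNAs mattered more. Scaling on all 7 detected references, added after the values were seen, gave -1.24 for miR-191. Scaling on RNU48, RNU6B and 5S RNA alone lowered every name by 0.57, to -1.75 for miR-191, -0.81 for miR-425, -0.75 for miR-425* and -0.67 for miR-191*, past 1.5-fold for all 4, with a median of -0.59 over the 222 names detected on both arrays. Gaps between members are the same under any such shift.

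**Figure D4:**
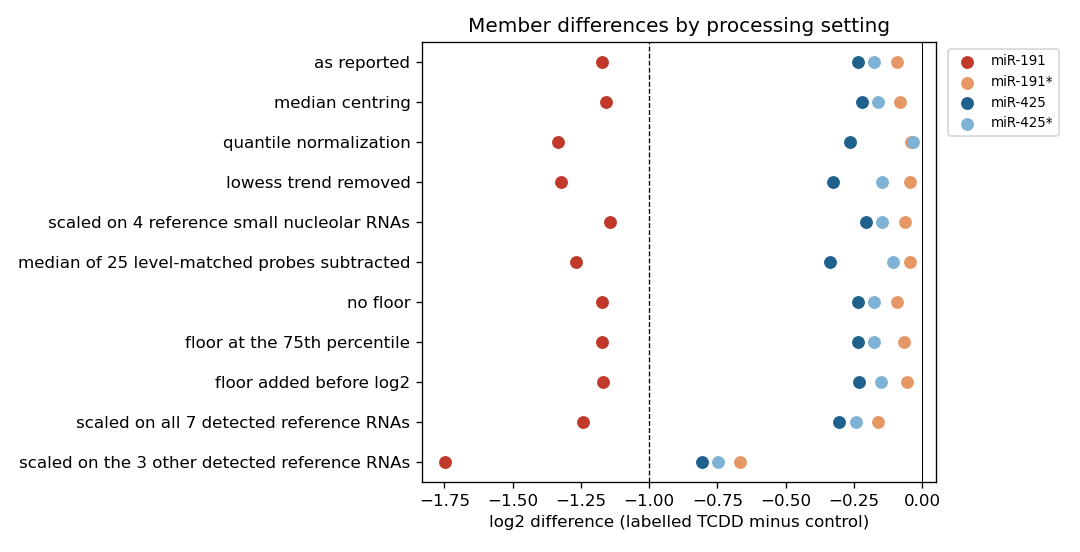
Log2 difference of each member (horizontal axis) as reported and under 10 other settings (rows). The dashed line marks 2-fold lower. miR-191 lies left of the line in each row and the other 3 members right of it. In the bottom row all 4 are shifted by 0.57.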

How the data were processed

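Small RNAs of HepG2 cells were measured on 1 control array and 1 TCDD-labelled array. The authors deposited log2 fluorescence values for 719 probes; per the labels' protocols, an RNA linker carrying the dye was ligated to total RNA, and both arrays are given as Cy3. The second colour of each array carried irrelevant samples and was not compared, per the design text. How the authors scanned, background-corrected and scaled the arrays is not stated in the labels or the file. Both probes of miR-340 were averaged, leaving 718 names. Values under the floor (2 times the smallest fluorescence) were set to it before differences were taken. With 1 array per group no test, SD or p-value was possible, and their number limits the precision.

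The members and lists were chosen with earlier results of these data known. Named miRNAs were the 4 members, the 3 differences nearest to miR-191, the 3 largest gaps of arm and neighbour pairs, list members (the 2 highest and 2 lowest of long lists) and 4 reference RNAs. Sequences and gene positions came from RefSeq (GRCh38.p14). Of the promoters of DALRD3 in the table, the one upstream of both hairpins was taken. Where 2 arms of a neighbour were named, the brighter was used. Arms were paired by name, copy-numbered star names included. Alternatives were median centring, quantile normalization, a lowess trend (fraction 0.5), reference RNAs, level-matched probes, the floor left out, raised to the 75th percentile or added before log2, and 1.5-fold and 3-fold thresholds. Scripts were tested on simulated data. Python 3.11.15, numpy 2.4.6, pandas 2.3.3, statsmodels 0.14.6 and matplotlib 3.10.9 were used.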

Additional observations from a re-analysis of the deposited data

How the results depend on the processing

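Over the 8 listed settings, 56 recomputed differences of members, arms and neighbours all kept their sign and moved by at most 0.21 on the log2 scale, less than the robust SD of 0.28 between probes. Settings of the floor barely touch bright probes. Median centring and scaling on reference RNAs move all names alike, so the gaps between arms and neighbours cannot change under them. Part of this stability is thus fixed by construction. Of both settings added after the data were seen, scaling on all 7 detected reference RNAs moved no difference past that SD, while scaling on RNU48, RNU6B and 5S RNA gave -1.75 for miR-191, -0.81 for miR-425, -0.75 for miR-425* and -0.67 for miR-191*, since it lowers every name by 0.57. The gap between miR-191 and miR-191* ranged from -1.29 to -1.08, that between miR-425 and miR-425* from -0.23 to -0.06, and that between miR-191 and miR-425 from -1.07 to -0.93. The number of members 2-fold apart, 1, was 0 at a 3-fold threshold. Among all detected names, the count lower, 6, became 10 at 1.5-fold and 1 at 3-fold, and the count higher, 1, became 8 at 1.5-fold, 0 at 3-fold and 8 with no floor, since dim control values then enter. No paired analysis was possible because both groups hold a single array, which also means that leaving out a replicate was not run. Dim signal limits miR-191*, and nearness to the array maximum limits miR-191 in control.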
